A study of Mus musculus with 2 samples.

Results

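The genes described here are the transcription factors of epithelial-mesenchymal transition (EMT), *Snai1*, *Snai2*, *Twist1*, *Twist2*, *Zeb1*, *Zeb2*, *Prrx1* and *Prrx2*, which were chosen by symbol and make up 8 of the 28000 genes counted. EMT is the change by which epithelial cells give up their junctions and become migratory, and neural crest cells, the source of melanoblasts and Schwann cells, pass through it when they leave the neural tube. SNAI and ZEB proteins are zinc finger repressors that bind E-box DNA and turn down epithelial genes such as *Cdh1*. TWIST proteins are basic helix-loop-helix (bHLH) factors that work as dimers with E proteins, and PRRX proteins are paired-related homeodomain factors of limb, craniofacial and dermal mesenchyme.

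Unique molecular identifiers (UMIs) were counted in tdTomato+ cells sorted from the trunk skin of E15.5 mouse embryos and loaded on the 10× Chromium platform, with 1 HIRA WT library and 1 HIRA KO library. WT embryos were *TyrCre::Hira* wt/wt and KO embryos *TyrCre::Hira* fl/fl, both carrying a tdTomato reporter that Cre switches on, on a mixed background close to C57BL/6J. Cre was driven by the *Tyr* promoter, so loss of the histone chaperone HIRA was directed to melanoblasts and other cells of neural crest origin that had used this promoter, and both genotypes carried Cre. The WT library held 1546 barcodes and 7073939 UMIs (median 3961 per barcode), the KO library 846 barcodes and 5049514 UMIs (median 5152.5), and 1540 and 828 cells were kept.

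With 1 library per genotype there was no replicate, no test was possible, and every interval below is a 95% interval for counting error only. *Hira* itself gave 82 UMIs in the WT library and 50 in the KO library. In melanoblast-like cells it fell from 13.8 to 3.53 CPM (the UMIs of a gene per 10⁶ UMIs of the cells), on 35 and 3 UMIs, whereas mesenchymal-like cells held 9 and 17 UMIs. A 3′ tag outside the deleted part of a gene cannot check its deletion, and the deleted part is not given in the sources used here. *Xist* gave 16822 UMIs in WT and 23 in KO, and the Y-linked *Eif2s3y* 0 and 220, so the embryos differed in sex, and sex and genotype cannot be told apart. The libraries shared 0 barcodes.

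The cells formed 19 clusters, which were named from markers as 9 cell classes except for 1 unnamed cluster. Neither the 8 factors nor the related gene lists entered the clustering or the markers, so no cluster was built on them. Mesenchymal-like cells fell into clusters led by *Crabp1* (184 WT and 115 KO cells), *Mfap4* (27 and 124) and *Mfap5* (21 and 34). Melanoblast-like cells numbered 534 and 139, and glial-like cells 448 and 254. Levels are UMIs summed over the cells of a cluster and given as CPM. They count 3′ ends and are not scaled by gene length.

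**Figure D1:**
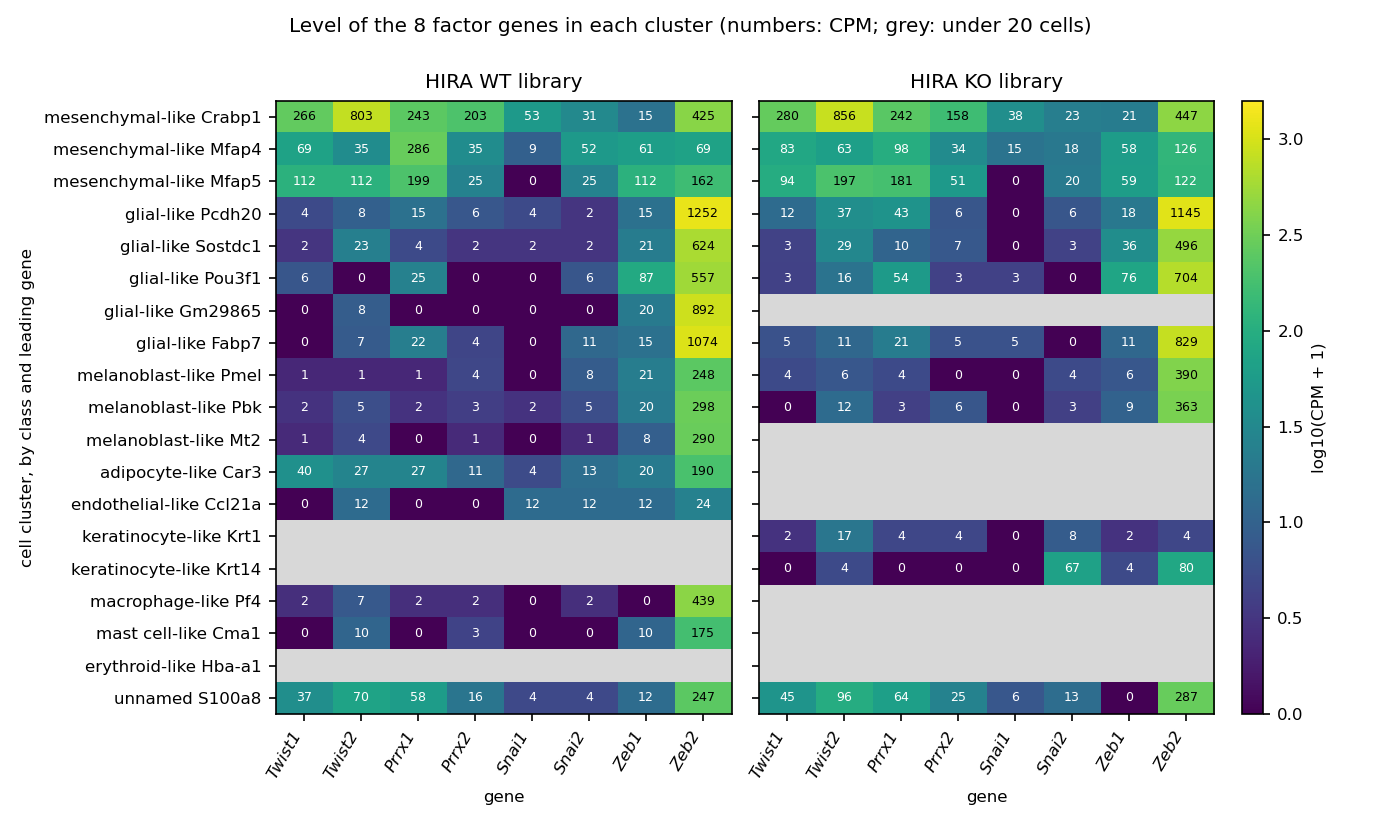
Level of each factor gene (horizontal axis) in each cell cluster (vertical axis, by class and leading gene) in the HIRA WT and HIRA KO libraries, coloured by log10(CPM + 1) with the CPM written in each cell and clusters of under 20 cells of a library in grey. *Twist2* was highest in the *Crabp1* cluster in both libraries (803 and 856 CPM), and *Zeb2* in the *Pcdh20* glial-like cluster (1252 and 1145 CPM).

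*Twist2*, *Twist1*, *Prrx2* and *Snai1* had their highest levels in the *Crabp1* cluster, among clusters with at least 20 cells of a library. *Twist2* (ENSMUSG00000007805, GRCm38 chr1:91801461-91848028, + strand), a regulator of dermal fibroblasts, reached 803 CPM (746 to 863) for WT against 856 CPM (787 to 930) for KO cells of that cluster. The next cluster in the order, led by *Mfap5*, held 112 CPM (51.2 to 213) and 197 CPM (146 to 259), and its interval did not overlap that of the *Crabp1* cluster in either library. In the *Mfap4* cluster *Twist2* was at 34.7 CPM in WT, on 4 UMIs, and at 62.8 CPM in KO, on 41 UMIs. The gene thus set the *Crabp1* cluster apart from the other mesenchymal-like clusters in both genotypes.

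A *Twist2* UMI was found in 91.3% of WT cells (86.3% to 94.9%) and 92.2% of KO cells (85.7% to 96.4%) of the *Crabp1* cluster, where the median depth was 4447 and 5562 UMIs. With every cell thinned to 2000 UMIs, which left out 8 WT cells and 0 KO cells, the shares were 73.3% and 71.3%. Melanoblast-like cells, which should lack the gene, held a *Twist2* UMI in 1.69% of WT and 6.47% of KO cells at median depths of 4335 and 5654 UMIs. Free RNA in the ratio of the mesenchymal-like cells, scaled by *Dcn* and *Lum*, would give 10.2 and 8.44 *Twist2* UMIs there, and 9 and 9 were counted. The counts were close to this estimate, which here and below covers RNA from mesenchymal-like cells only and takes all *Dcn* and *Lum* UMIs as free RNA, which was not tested.

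*Twist1* (ENSMUSG00000035799, chr12:33957671-33959829, + strand), which acts in cranial neural crest and limb mesenchyme, followed the same order at 266 CPM (234 to 301) for WT against 280 CPM (241 to 323) for KO cells of the *Crabp1* cluster. The *Mfap5* cluster held 112 and 94.4 CPM and the *Mfap4* cluster 69.4 and 82.7 CPM, and the intervals of these 2 clusters overlapped in both libraries. A *Twist1* UMI was found in 63.6% and 68.7% of *Crabp1* cluster cells, or 39.8% and 41.7% after thinning. Of melanoblast-like cells 0.749% and 1.44% had 1, or 0.573% and 0% after thinning. Adipocyte-like cells of the WT library held 39.8 CPM of *Twist1* (23.6 to 62.9), on 18 UMIs in 43 cells where free RNA would give 9.41, and those of the KO library 78.3 CPM (33.8 to 154), on 8 UMIs in 8 cells where it would give 4.13.

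The paired-related genes parted from each other outside the *Crabp1* cluster. *Prrx2* (ENSMUSG00000039476, chr2:30834972-30881251, + strand) was at 203 CPM (175 to 235) for WT against 158 CPM (129 to 191) for KO cells of the *Crabp1* cluster, and no other cluster of at least 20 cells passed 34.7 CPM in WT or 51.1 CPM in KO. *Prrx1* (ENSMUSG00000026586, chr1:163245119-163313710, − strand) was present in all 3 mesenchymal-like clusters. In WT it stood at 286 CPM (197 to 402) in the *Mfap4* cluster, 243 CPM (213 to 277) in the *Crabp1* cluster and 199 CPM (114 to 323) in the *Mfap5* cluster, an order in which neighbours overlapped. In KO the order was *Crabp1* (242 CPM), *Mfap5* (181 CPM) and *Mfap4* (98.1 CPM), and the last was separated from the cluster above it.

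*Prrx1* was also counted in glial-like cells, on more UMIs than the estimate for free mesenchymal RNA. The class held 11.6 CPM in WT, on 19 UMIs where free RNA would give 5.08, and 32.6 CPM in KO, on 39 UMIs against 5.64. The *Pou3f1* cluster held 24.8 and 53.7 CPM, the *Pcdh20* cluster 14.8 and 42.7 CPM and the *Fabp7* cluster 22.1 and 21.4 CPM, while the *Sostdc1* cluster had 2 and 3 UMIs and the *Gm29865* cluster 0 and 1. The mesenchymal genes *Dcn* (29.9 and 68.6 CPM) and *Col1a1* (556 and 941 CPM) were also higher in KO over the glial-like class. In the *Pcdh20* cluster *Col1a1* was at 25.4 and 366 CPM, while the 10 mesenchymal markers used for naming summed to 1099 and 1242 CPM. The most abundant of these 10 was *Mfap2* there and *Col1a2* in the mesenchymal-like clusters, so the sum need not follow RNA of mesenchymal-like cells. *Lum* was lower in KO in the *Sostdc1* cluster, at 103 and 65.2 CPM. The source of the *Prrx1* UMIs was not tested. In melanoblast-like cells, by contrast, 3 and 3 *Prrx1* UMIs were counted where free RNA would give 3.68 and 3.47. *Prrx2* in glial-like cells stayed at 5 and 6 UMIs against 3.61 and 2.91.

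Across 11 profiles of a class and library with at least 20 cells, log2(CPM + 10) of the 4 *Twist* and *Prrx* genes ran in parallel, with Pearson's r of 0.960 for *Twist1* and *Twist2*, 0.984 for *Twist2* and *Prrx2*, 0.947 for *Prrx1* and *Prrx2* and 0.958 for *Prrx1* and *Twist2*. The profiles come from 2 libraries and are not independent, so each r is a description. Each profile sums the clusters of a class, so r does not show differences between the mesenchymal-like clusters. In the WT *Mfap4* cluster *Prrx1* was at 286 CPM and *Twist2* at 34.7 CPM, against 243 and 803 CPM in the *Crabp1* cluster. The 3 genes most like *Twist1* were *Igdcc4*, *Pdgfra* and *Pth1r* (each r = 0.991). Those most like *Twist2* were *C1qtnf2* (0.988), *Lum* (0.986), a matrix proteoglycan, and *Prrx2*. *Prrx1* was closest to *Hoxc6* (0.974), *Pcsk6* (0.973) and *Col6a1* (0.972), and *Prrx2* to *Cped1* (0.990), *En1* (0.990) and *Cpz* (0.988). *Pdgfra* and *Col6a1* were among the markers that named the mesenchymal-like class.

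The 250 bases before the RefSeq transcript start were read on GRCm38.p6 for 6 of the 8 members. E-box letters (CANNTG, of which the form bound by SNAI and ZEB is CACCTG) and the homeodomain letters TAATTA were searched on both strands and are in capitals. CANNTG was in 66.2% of 32851 windows of this length, CACCTG in 17.2% and TAATTA in 4.84%. Of these genes, *Snai1* had a CACCTG at 126 bases from the start and *Prrx1* a TAATTA, and *Twist1*, *Twist2* and *Prrx2* had neither motif. None of 4 *Zeb2* windows held either. A match is a description of the letters and not of binding. The windows shown are *Snai1* chr2:167537945-167538194 (+ strand), *Twist1* chr12:33957421-33957670 (+), *Twist2* chr1:91801211-91801460 (+), *Prrx1* chr1:163313651-163313900 (− strand) and *Prrx2* chr2:30845117-30845366 (+). The *Prrx1* window overlaps the gene span given above and the *Prrx2* window lies inside it, because the RefSeq start used differs from the start of the span.
Snai1: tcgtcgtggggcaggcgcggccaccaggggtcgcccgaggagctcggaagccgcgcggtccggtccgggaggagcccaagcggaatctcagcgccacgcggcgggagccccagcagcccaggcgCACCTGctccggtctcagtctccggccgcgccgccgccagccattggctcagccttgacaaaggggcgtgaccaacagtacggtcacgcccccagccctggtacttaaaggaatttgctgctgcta
Twist1: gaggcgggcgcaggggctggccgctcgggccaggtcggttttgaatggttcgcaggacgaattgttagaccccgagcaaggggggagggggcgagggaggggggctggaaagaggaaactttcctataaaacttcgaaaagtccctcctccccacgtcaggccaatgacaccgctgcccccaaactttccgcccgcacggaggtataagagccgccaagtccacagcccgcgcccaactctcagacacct
Twist2: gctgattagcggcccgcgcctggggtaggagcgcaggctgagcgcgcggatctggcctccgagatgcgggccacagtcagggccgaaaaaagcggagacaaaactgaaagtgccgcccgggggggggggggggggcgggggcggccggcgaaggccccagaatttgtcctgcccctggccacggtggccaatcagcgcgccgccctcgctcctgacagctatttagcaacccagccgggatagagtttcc
Prrx1: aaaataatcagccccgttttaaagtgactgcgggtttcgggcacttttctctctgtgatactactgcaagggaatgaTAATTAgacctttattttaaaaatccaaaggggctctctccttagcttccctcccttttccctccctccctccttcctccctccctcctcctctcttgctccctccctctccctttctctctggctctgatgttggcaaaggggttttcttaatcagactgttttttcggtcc
Prrx2: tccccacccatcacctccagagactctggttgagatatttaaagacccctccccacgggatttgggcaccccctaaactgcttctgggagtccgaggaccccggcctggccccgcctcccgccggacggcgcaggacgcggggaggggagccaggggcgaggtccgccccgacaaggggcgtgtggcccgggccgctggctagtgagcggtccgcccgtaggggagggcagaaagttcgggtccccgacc

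The SNAI repressors gave few UMIs, with 59 WT and 45 KO UMIs of *Snai1* and 68 and 65 of *Snai2* over all kept cells. *Snai1* (ENSMUSG00000042821, chr2:167538195-167542814, + strand), which triggers EMT at gastrulation, was at 52.7 CPM (39.0 to 69.7) for WT against 37.6 CPM (24.4 to 55.5) for KO cells of the *Crabp1* cluster. These cells held 49 of the 59 WT and 25 of the 45 KO UMIs. The *Mfap4* cluster held 8.68 CPM in WT, on 1 UMI, and 15.3 CPM in KO, on 10. In the *Mfap5* cluster 0 UMIs were counted in either library, which allows up to 37.3 CPM in WT and 11.8 CPM in KO. Melanoblast-like cells had 2 and 0 *Snai1* UMIs, where free RNA would give 0.669 and 0.448, too few to tell these apart. Across the 11 profiles *Snai1* was closest to *Stmn2* (r = 0.941), *Timp1* (0.940) and *Cdc42ep2* (0.937).

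*Snai2* (ENSMUSG00000022676, chr16:14705852-14709385, + strand), the SNAI factor of migrating neural crest and of basal epidermis, had a wider range of cells. In the KO library its highest level was in the basal keratinocyte-like cluster led by *Krt14*, at 67.5 CPM (38.6 to 110) on 16 UMIs in 25 cells, where free RNA would give 0.823. The 8 WT cells of this cluster held 74.0 CPM (20.2 to 189) on 4 UMIs. In the *Crabp1* cluster it was at 31.2 CPM (20.9 to 44.8) and 22.6 CPM (12.6 to 37.2), and in the *Mfap4* cluster at 52.1 CPM (19.1 to 113) and 18.4 CPM (9.50 to 32.1). The suprabasal cluster led by *Krt1* held 7.64 CPM in KO.

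Melanoblast-like cells held little *Snai2*, at 4.74 CPM for WT against 4.71 CPM for KO. The 12 WT and 4 KO UMIs exceeded the 0.495 and 0.409 that free mesenchymal RNA would give, and 2.25% and 2.88% of these cells held a UMI. No cell in this class held more than 1. Glial-like cells were at 3.66 and 2.51 CPM. At 133 UMIs the profile of *Snai2* was the most like those of *Eef1d* (r = 0.936), *Shmt2* (0.897) and *Lats1* (0.885).

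*Zeb2* was highest in glial-like cells and was also counted in macrophage-like cells, the *Crabp1* cluster and melanoblast-like cells. *Zeb2* (ENSMUSG00000026872, chr2:44983632-45117395, − strand), needed for Schwann cell maturation and melanocyte differentiation, gave 3086 WT and 1831 KO UMIs. Its level was highest in the *Pcdh20* glial-like cluster, at 1252 CPM (1153 to 1357) for WT against 1145 CPM (1032 to 1266) for KO. The *Fabp7* cluster followed at 1074 and 829 CPM, and in WT its interval overlapped that of the first. The myelin gene cluster led by *Sostdc1* held 624 and 496 CPM and the *Pou3f1* cluster 557 and 704 CPM, and all 5 glial-like clusters were above every melanoblast-like cluster in both libraries.

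A *Zeb2* UMI was found in 98.6% of WT and 97.7% of KO cells of the *Pcdh20* cluster, or 93.2% and 87.8% after thinning. Among clusters with at least 20 cells the *Crabp1* cluster came next after the glial-like cells in the KO library, at 447 CPM (398 to 501), and stood at 425 CPM (384 to 469) in WT, whereas the *Mfap4* cluster held 69.4 and 126 CPM. Macrophage-like cells held 439 CPM (387 to 495) for WT against 455 CPM (359 to 568) for KO, on 96 and 19 cells. Mast cell-like cells of the WT library held 175 CPM, and the KO *Krt14* keratinocyte-like cluster 80.1 CPM. Suprabasal keratinocyte-like cells of the *Krt1* cluster lacked *Zeb2* but for 2 UMIs in 1.79% of KO cells, at a median depth of 9633 UMIs against 3485.5 in the KO *Pcdh20* cluster. Across profiles *Zeb2* was closest to *Borcs7* (r = 0.932), *Celf2* (0.930) and *Tmem138* (0.924), and its r with *Twist2* was 0.133.

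**Figure D2:**
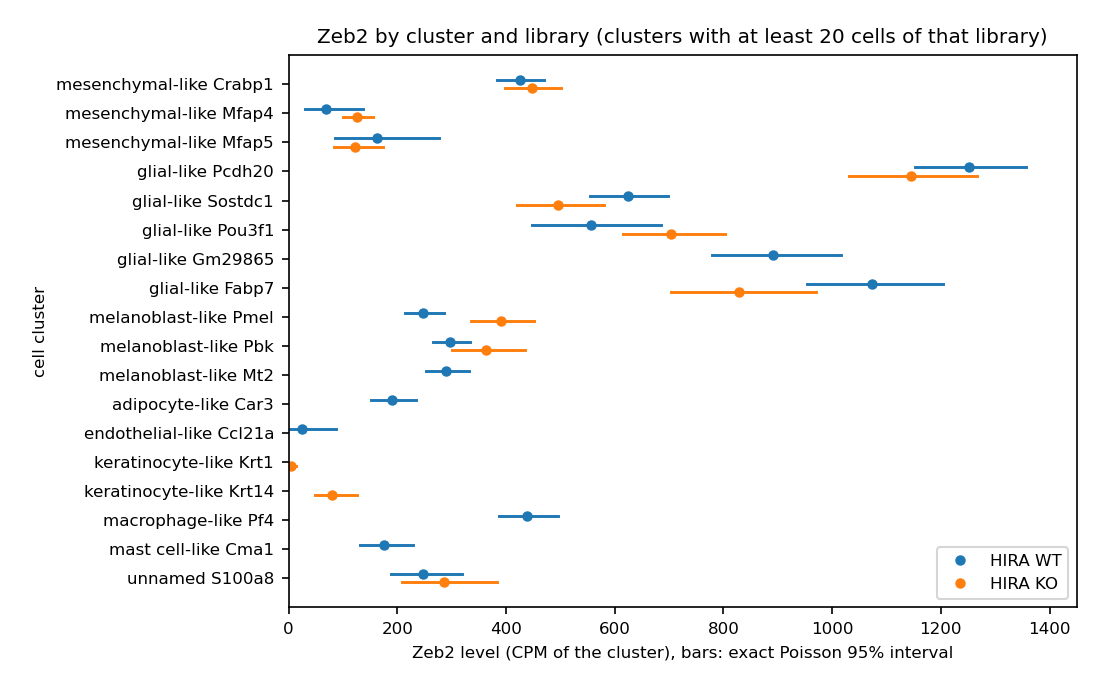
*Zeb2* level in CPM (horizontal axis) of each cluster (vertical axis) in the HIRA WT (blue) and HIRA KO (orange) libraries, for clusters with at least 20 cells of that library; points are summed counts and bars exact Poisson 95% intervals. The melanoblast-like *Pmel* cluster lies at 248 CPM for WT against 390 CPM for KO without overlap of the intervals.

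*Zeb1* (ENSMUSG00000024238, chr18:5591860-5775467, + strand), the paralogue that keeps *Cdh1* low in mesenchyme, had nearly the reverse order among the mesenchymal-like clusters. It was lowest in the *Crabp1* cluster, at 15.1 CPM (8.24 to 25.3) for WT against 21.1 CPM (11.5 to 35.4) for KO. The *Mfap4* cluster held 60.8 CPM (24.4 to 125) and 58.2 CPM (41.2 to 79.9), and the *Mfap5* cluster 112 CPM (51.2 to 213) and 59.0 CPM (33.0 to 97.3). The difference between the *Crabp1* and *Mfap4* clusters was larger than the counting intervals in KO, but not in WT.

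The glial-like cluster led by *Pou3f1* held *Zeb1* at 86.6 CPM (47.4 to 145) for WT against 75.8 CPM (48.5 to 113) for KO. The other glial-like clusters held 14.7 to 20.9 CPM in WT and 10.7 to 35.9 CPM in KO. In endothelial-like cells 7 UMIs were counted in 8 KO cells, or 137 CPM (55.1 to 282), and 1 UMI in 21 WT cells. Melanoblast-like cells held 17.0 CPM in WT and 8.23 CPM in KO, on 43 and 7 UMIs where free mesenchymal RNA alone would give 0.401 and 0.857. *Zeb1* was closest to *Prkcsh* (r = 0.968), *Calu* (0.965) and *Sgcb* (0.961).

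The melanoblast-like class was compared between genotypes as a whole, and its cells were spread differently, with 180 WT and 86 KO cells in the *Pmel* cluster, 156 and 41 in the *Pbk* cluster, where *Top2a* is among the leading genes, and 198 and 12 in the *Mt2* cluster. *Zeb2* stood at 280 CPM (260 to 301) for WT against 378 CPM (337 to 421) for KO, with a log2 ratio of 0.43 (0.24 to 0.62). It was higher in KO in all 3 clusters, with log2 ratios of 0.65 (0.36 to 0.95) in the *Pmel* cluster, 0.29 (-0.03 to 0.60) in the *Pbk* cluster and 0.28 (-0.53 to 0.99) in the *Mt2* cluster. The share of cells with a *Zeb2* UMI was 65.5% (61.3% to 69.6%) and 73.4% (65.2% to 80.5%), and 42.4% and 54.0% after thinning. These rest on 708 and 321 UMIs, and free *Zeb2* RNA from glial-like cells was not estimated.

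Only *Zeb2* and *Zeb1* reached 30 UMIs in melanoblast-like cells over both libraries, the minimum set for a ratio. Of these 2 factors, 0 were at least 1 log2 unit higher in KO, as were 2.6% of all 6949 genes with 30 UMIs, and 1 was at least 1 log2 unit lower, as were 3.01%. That gene was *Zeb1*, at -1.05 (-2.44 to 0.12) on 43 and 7 UMIs, with an interval that included 0. The call for *Zeb1* depended on the analysis, since its ratio was -0.41 with a higher minimum of genes per cell and the cells clustered anew, -0.84 with 50 principal components, -0.87 as a mean over cells and -0.89 after thinning. Over all 10 alternatives the *Zeb1* ratio ranged from -1.50 to -0.41. *Zeb2* stayed under 1 log2 unit, and 14.5% of all tested genes had a ratio at least as high. The mesenchymal gene *Col1a1* was at 136 CPM in KO melanoblast-like cells against 22.9 CPM in WT. Whether these UMIs came from the cells themselves or from other cells was not tested. Glial markers summed to 228 CPM in WT and 247 CPM in KO in the *Pmel* cluster. They summed to 243 and 256 CPM in the *Pbk* cluster and to 293 and 186 CPM in the *Mt2* cluster. The part of free RNA in the *Zeb2* difference was not tested.

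In the *Crabp1* cluster, where *Twist2*, *Twist1*, *Prrx2* and *Snai1* were highest, the factors differed little between the libraries. Of the marker genes used here for naming, only the neuronal *Stmn2* was among its 10 leading genes, so mesenchymal-like cells were compared cluster by cluster and are summed further on only to show the effect of cluster shares. Of 7 factors with 30 UMIs, 0 were at least 1 log2 unit higher in KO, against 1.52% of 5070 genes, and 0 at least 1 log2 unit lower, against 2.03%. The median log2 ratio of the 7 was -0.01, and that of all 5070 genes -0.03. *Twist2* had a ratio of 0.09 (-0.07 to 0.25), *Twist1* of 0.07 (-0.21 to 0.36), *Zeb2* of 0.07 (-0.15 to 0.29) and *Prrx1* of -0.01 (-0.31 to 0.29). All 4 intervals included 0 and stayed within 1 log2 unit of it.

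*Prrx2* was the exception among the 7, at -0.36 (-0.72 to -0.01) on 189 and 105 UMIs, and 18.7% of all tested genes in the cluster had a ratio as low. *Snai1* had a ratio of -0.49 (-1.24 to 0.24) and *Snai2* of -0.47 (-1.47 to 0.48), neither distinguishable from 0 at this depth. *Zeb1*, with 14 and 14 UMIs, was under the minimum.

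The *Mfap4* cluster held 27 WT and 124 KO cells and came mostly from the KO library, so a difference within it may be one between the libraries. It also raised 3 of 7 pericyte markers (*Kcnj8*, *Abcc9* and *Notch3*), whose list summed to 278 CPM in WT and 185 CPM in KO with *Kcnj8* the most abundant. Of 5 factors with 30 UMIs, 0 were at least 1 log2 unit higher in KO, against 9.24% of 3062 genes, and 1 was at least 1 log2 unit lower, against 2.84%. This was *Prrx1*, at 286 CPM for WT against 98.1 CPM for KO, with a log2 ratio of -1.55 (-2.17 to -0.89) on 33 and 64 UMIs. It was found in 66.7% and 33.9% of cells, or 53.8% and 20.8% after thinning.

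The call for *Prrx1* depended on the clustering, since its ratio was -0.84 at Leiden resolution 2 and -0.88 with 50 principal components, both under 1 log2 unit in size. *Twist2* had a ratio of 0.86 (-0.61 to 2.80) in the *Mfap4* cluster, *Zeb2* of 0.86 (-0.19 to 2.11), *Twist1* of 0.25 (-0.83 to 1.54) and *Zeb1* of -0.06 (-1.24 to 1.35). All 4 intervals included 0. Under the alternatives *Twist2* ranged from -0.32 to 1.23 and *Zeb2* from -0.19 to 1.44, so neither the direction nor the count of 0 factors past 1 log2 unit was stable. In the *Mfap5* cluster, with 21 and 34 cells, the ratios of the 4 factors with 30 UMIs lay between -0.41 and 0.81, and each interval included 0.

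The sum over the mesenchymal-like clusters gave a different picture from the clusters themselves. The *Crabp1* cluster made up 79.3% of mesenchymal-like cells in WT and 42.1% in KO, the *Mfap4* cluster 11.6% and 45.4%, and the *Mfap5* cluster 9.05% and 12.5%. Summed over the 3 clusters, *Twist2* went from 675 to 420 CPM (log2 ratio -0.68), *Prrx2* from 173 to 89.1 CPM (-0.96), *Snai1* from 44.5 to 22.3 CPM (-0.997) and *Zeb1* from 26.7 to 42.6 CPM (0.68). With the KO clusters weighted by their WT shares of cells, the ratio was 0.05 for *Twist2*, -0.39 for *Prrx2*, -0.52 for *Snai1* and 0.14 for *Zeb1*. For *Twist1*, *Zeb2* and *Prrx1* it moved from -0.48, -0.50 and -0.50 to 0.02, 0.02 and -0.15.

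Every ratio was nearer 0 at equal shares, and *Snai2* moved least, from -0.69 to -0.59. The *Crabp1* cluster supplied 98.3% of the *Twist2* UMIs of mesenchymal-like cells in WT and 86.2% in KO. For *Snai1* it supplied 98.0% and 71.4%, and for *Zeb1* 46.7% and 20.9%, where the *Mfap4* cluster supplied 23.3% and 56.7%. With 1 library per genotype, whether the shares of the clusters differ between genotypes was not tested.

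**Figure D3:**
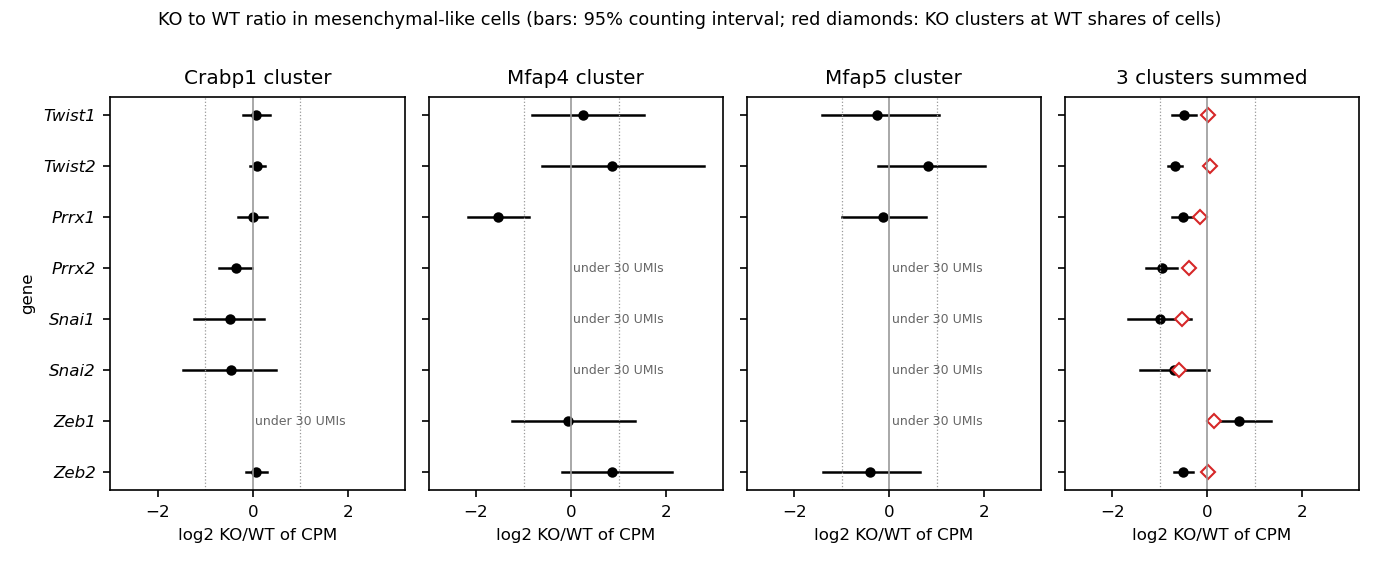
Log2 KO to WT ratio of CPM (horizontal axes) of each factor (vertical axis) in each mesenchymal-like cluster and in the 3 clusters summed; points are ratios, bars 95% counting intervals, red diamonds the summed ratio with KO clusters at WT shares of cells, and dotted lines mark 1 log2 unit. *Twist2* lies at 0.09 in the *Crabp1* cluster and at -0.68 in the sum.

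Among glial-like cells the genotypes were also compared by cluster, since the neuronal *Syt1* was the only one of the marker genes used here for naming among the leading genes of the *Pou3f1* cluster. In the *Pcdh20* cluster only *Zeb2* reached 30 UMIs, so 0 of 1 factors were at least 1 log2 unit higher in KO, against 2.48% of 3303 genes, and 0 lower, against 3.09%. Its ratio was -0.13 (-0.32 to 0.06) in that cluster, -0.33 (-0.62 to -0.04) in the *Sostdc1* cluster, -0.37 (-0.66 to -0.09) in the *Fabp7* cluster and -0.70 (-1.29 to -0.16) in the *Gm29865* cluster. In the *Pou3f1* cluster it was 0.34 (-0.02 to 0.71). *Zeb2* was thus lower in KO in 4 of 5 glial-like clusters, each by less than 1 log2 unit. Ratios as low were found for 44.3% of all tested genes in the *Pcdh20* cluster and 20.9% in the *Sostdc1* cluster. The share was 19.1% in the *Fabp7* cluster and 13.9% in the *Gm29865* cluster, so many genes lay as low. *Zeb1* in the *Pou3f1* cluster had a ratio of -0.19. Summed over the 5 glial-like clusters, whose shares differed between the libraries, *Prrx1* had a ratio of 1.49 (0.67 to 2.37) on 19 and 39 UMIs and *Twist2* of 1.11 (0.24 to 2.03) on 19 and 30 UMIs, where free mesenchymal RNA would give 14.0 and 13.7 UMIs of *Twist2*. Of all tested genes 0.790% and 1.87% had a ratio at least as high as these 2. The same share was 1.48% for *Dcn*, whose ratio was above that of *Twist2*, and 5.35% for *Col1a1*. In the *Pcdh20* cluster, which held 12 of the 30 KO *Twist2* UMIs, *Col1a1* had a ratio of 3.85 and *Lum* of 1.53. The 10 mesenchymal markers used for naming summed to 1099 CPM in WT and 1242 CPM in KO there, with *Mfap2* the most abundant. Up to 7 KO *Twist2* UMIs lay in a single glial-like cell.

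Single cells of the *Crabp1* cluster held several factors together. A mean of 3.99 of the 8 was found per WT cell and 4.10 per KO cell, and 2.56 and 2.46 after thinning. At least 3 were found in 87.5% and 92.2% of these cells, or 52.3% and 44.3% after thinning. The shares were 23.8% and 67.6% in the *Mfap5* cluster, or 16.7% and 6.06% after thinning, and 25.9% and 24.2% in the *Mfap4* cluster, or 11.5% and 2.50%. Of melanoblast-like cells 0.375% and 2.88% held at least 3, or 0% and 0.719% after thinning. Summed CPM of the 8 factors was 2039 in WT and 2065 in KO in the *Crabp1* cluster, 616 and 495 in the *Mfap4* cluster, and 747 and 724 in the *Mfap5* cluster.

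After thinning, 49 of 176 WT and 36 of 115 KO cells of the *Crabp1* cluster held both *Twist* paralogues, and 20 and 14 held both *Prrx* paralogues. Among these thinned cells, *Twist2* was present in 70.0% of WT cells with a *Twist1* UMI and in 75.5% of those without, and in KO in 75.0% and 68.7%. *Prrx2* was present in 29.0% of WT cells with *Prrx1* and in 34.6% of those without, and in KO in 32.6% and 26.4%. The direction differed between the libraries for both pairs. The sparse *Snai1* and *Snai2* were found together in 3 WT cells and 0 KO cells, where 8 KO cells held *Snai1* only and 5 *Snai2* only, and *Zeb1* and *Zeb2* were found together in 2 and 4 cells.

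The bHLH partners of the TWIST factors were counted in the cluster with the most TWIST. *Tcf4*, an E protein, stood at 626 CPM for WT against 635 CPM for KO in the *Crabp1* cluster, *Tcf12* at 115 and 99.3 CPM and *Tcf3* at 97.9 and 73.8 CPM. All 3 had intervals that included 0, and the list's median log2 ratio was -0.21. Of the inhibitors of E proteins, 3 of 4 had 30 UMIs, with a median of -0.54, against -0.03 for all 5070 genes. Of these 3, 0 were at least 1 log2 unit higher or lower in KO, against 1.52% and 2.03% of all genes. *Id1* went from 138 to 76.8 CPM, a ratio of -0.84 (-1.34 to -0.36), and *Id3* from 235 to 161 CPM, a ratio of -0.54 (-0.89 to -0.20). *Id2* was at -0.22 (-0.59 to 0.13).

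The co-repressors that SNAI, ZEB and TWIST recruit were measured in 7 of 8 cases in the *Crabp1* cluster, with a median of 0.21, and *Hdac2*, *Ctbp1* and *Ezh2* had ratios of 0.22, 0.38 and 0.03. Of the transforming growth factor-beta (TGF-beta) and bone morphogenetic protein (BMP) ligands, which induce these factors, 4 of 6 had 30 UMIs. *Bmp4* went from 35.5 to 64.7 CPM, a ratio of 0.87 (0.18 to 1.57), while *Bmp7* was at 0.04 and *Tgfb2* at -0.59 (-1.84 to 0.56). The receptors and Smads had a median of -0.06 over 6 of 8 genes, with *Tgfbr3* at -0.09, *Smad4* at 0.05 and *Bmpr1a* at 0.69 (-0.03 to 1.42). In the co-repressors, ligands and receptors 0 tested genes were at least 1 log2 unit higher or lower in this cluster, where 1.52% and 2.03% of all 5070 genes were, with a median of -0.03.

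*Cdh1*, the epithelial cadherin that SNAI and ZEB repress, was at 123 CPM for WT against 76.5 CPM for KO melanoblast-like cells, a ratio of -0.69 (-1.10 to -0.30). By cluster the ratio was -0.81 (-1.43 to -0.23) for *Pmel*, -0.70 (-1.38 to -0.07) for *Pbk* and 0.22 (-1.14 to 1.32) for *Mt2*, the last on 90 and 7 UMIs. In the *Crabp1* cluster *Cdh1* was at 14.0 and 6.02 CPM. *Jup*, a junction protein, was at 24.5 and 17.6 CPM in melanoblast-like cells, and *Dsp* at 0.790 and 11.8 CPM, on 2 and 10 UMIs. Keratinocyte markers were also more frequent in KO melanoblast-like cells, with a sum of 76.8 and 428 CPM in the *Pmel* cluster. This was not particular to melanoblast-like cells, with 49.5 and 436 CPM in the *Crabp1* cluster and 78.4 and 516 CPM in the *Pcdh20* cluster. Erythroid markers summed to 73.0 and 1135 CPM in the *Pmel* cluster. The source of the *Dsp* UMIs was not tested. None of the 12 epithelial adhesion and keratin genes reached 30 UMIs in the *Crabp1* cluster, and in melanoblast-like cells 2 did. Of the 8 epithelial regulators, 0 reached 30 UMIs in either, and *Esrp2*, *Esrp1* and *Grhl1* gave 7, 3 and 3 UMIs in the 3 largest classes together.

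Mesenchymal state genes had a median log2 ratio of 0.01 over 8 of 10 genes in the *Crabp1* cluster, with *Sparc* at 0.02 (-0.05 to 0.09), *Vim* at -0.20 (-0.31 to -0.10) and *Fn1* at 0.40 (0.05 to 0.75). In melanoblast-like cells *Vim* was at -0.60 (-0.67 to -0.53), *Sparc* at 0.74 (0.57 to 0.91) and *Fn1* at 2.27 on 13 and 21 UMIs. *Fn1* and *Sparc* are abundant in mesenchymal-like cells, and the mesenchymal gene *Col1a1* was also higher in KO melanoblast-like cells. Whether the *Fn1* and *Sparc* UMIs came from the melanoblast-like cells or from other cells was not tested. Of 12 related transcription factors, 11 were in the files and 1 had 30 UMIs in the *Crabp1* cluster, *Shox2* at 63.5 and 60.2 CPM. *Alx1*, a paired-related gene, was found instead in melanoblast-like cells, at 40.7 and 45.9 CPM, and *Scx* gave 9 and 15 UMIs in the *Mfap4* cluster.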

How the data were processed

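UMI counts were made by the authors with Cell Ranger 2.2.0 on mm10 (submitters' processing notes) and deposited per library without normalization. Cells with at least 100 genes, at most 40000 UMIs and at most 10% mitochondrial UMIs were kept. With scanpy 1.11.5 (Python 3.11.15), each cell was brought to a total of 10000 and logs were taken. Of 2000 variable genes, 1975 were used after the 8 factors, their lists, and sex, *Hira* and reporter genes were held out. Cells were clustered on 30 principal components, 15 neighbours and Leiden resolution 1.0. Clusters were named by the class whose markers were raised in the largest share (in at least 10% of cells, at least 1 log2 unit above the rest with 10 CPM added), from at least 3 raised. It stayed unnamed where at least 2 of its 10 leading genes marked another class and outnumbered its own, a detail set after the clusters were seen. The unnamed cluster held *S100a8*, with 57 WT and 24 KO cells. Scrublet called 9 WT and 6 KO doublets, which were kept.

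UMIs were summed per cluster. Levels have exact Poisson, shares Clopper-Pearson and ratios exact conditional binomial 95% intervals (scipy 1.17.1). Only the ratio intervals were tried on simulated data, which were Poisson counts without gathering of a gene's UMIs in single cells. A count of 0 was read as up to 3 counts. Ratios were read for genes with at least 30 UMIs, and at least 1 log2 unit counted as past the fold. The members and lists were chosen with earlier results of these data known. Named genes were the 8 members, the 3 genes of each list with the most UMIs in the 3 main classes, and the 3 genes most like each member; *Col1a1*, *Dcn* and genes that lead clusters or check labels are also named. Positions are those of GENCODE M21. Cell Ranger assigns reads by strand, and of the genes that overlap a member on its strand, 1 is counted, *Gm26523* within *Prrx1*, with 22 WT and 13 KO UMIs. *Snai2* and *Zeb1* upstream sequences were not used here.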

Additional observations from a re-analysis of the deposited data

Results flagged for a closer look

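*Zeb2* was higher in KO in melanoblast-like cells, at 0.43 log2 units (0.65 in the *Pmel* cluster), and lower in KO in glial-like clusters, with -0.33 in the *Sostdc1* cluster, -0.70 in the *Gm29865* cluster and -0.37 in the *Fabp7* cluster. Each of these counting intervals lay on its own side of 0, and the *Gm29865* cluster held 15 KO cells. Ratios as low were found for 20.9%, 13.9% and 19.1% of all tested genes in these glial-like clusters, in the same order. Ratios at least as high were found for 14.5% in melanoblast-like cells and 7.90% in the *Pmel* cluster. In the other 2 glial-like clusters the interval included 0, with -0.13 in the *Pcdh20* cluster and 0.34, in the other direction, in the *Pou3f1* cluster. With 1 library per genotype the difference between the cell classes was not tested.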

How the results depend on the processing

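No paired analysis was possible because each genotype had 1 library and no result comes from a test. Of 150 ratios by cell class under 10 alternatives, 146 lay within the counting interval of the reported value and 130 kept its sign. *Zeb2* in melanoblast-like cells ranged from 0.35 to 0.46. The exceptions were *Twist2* in the *Crabp1* cluster at -0.11 after thinning, and in the *Mfap4* cluster *Zeb2* at -0.19 and *Prrx1* at -0.84 with Leiden resolution 2, and *Prrx1* at -0.88 with 50 principal components. The cause was not tested. Of 90 levels, 85 lay within their intervals. After thinning, WT *Twist1* was 307 CPM and WT *Twist2* 901 CPM in the *Crabp1* cluster, and as a mean over cells WT *Twist2* was 863 CPM, KO *Zeb2* 501 CPM and, in the *Mfap4* cluster, KO *Zeb2* 97.0 CPM.

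The summed mesenchymal-like ratios moved at WT shares of clusters to 0.0199 for *Twist1*, 0.0478 for *Twist2*, 0.0238 for *Zeb2*, -0.15 for *Prrx1* and -0.39 for *Prrx2*. Within the *Crabp1* cluster they were 0.0747, 0.0932, 0.0725, -0.00534 and -0.36 in the same order. Within the *Mfap4* cluster they were 0.25 for *Twist1*, 0.86 for *Twist2*, -0.0615 for *Zeb1*, 0.86 for *Zeb2* and -1.55 for *Prrx1*, and within the *Mfap5* cluster 0.81 for *Twist2* and -0.14 for *Prrx1*. Thinning lowered all 16 shares of cells, by its construction. In the *Crabp1* cluster the WT and KO shares became 73.3% and 71.3% for *Twist2*, 39.8% and 41.7% for *Twist1*, 53.4% and 52.2% for *Zeb2*, 39.2% and 37.4% for *Prrx1*, 32.4% and 28.7% for *Prrx2*, and 10.2% and 6.96% for *Snai1*. *Zeb2* shares became 42.4% and 54.0% in melanoblast-like cells and 93.2% and 87.8% in the *Pcdh20* cluster. Depth limits *Snai1*, *Snai2* and *Zeb1*, with 133 UMIs or fewer of each SNAI gene over both libraries.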

Other observations

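A few cells outside the mesenchymal-like clusters held many of the factors at once. In the KO *Pcdh20* glial-like cluster a cell held 6 of the 8 factors and up to 7 *Twist2* UMIs were counted in a single cell, and the KO macrophage-like cells reached 6 factors in a cell, with 12 *Twist2* UMIs in 15.8% of 19 cells. The unnamed cluster with *S100a8* reached 6 factors in a WT cell and 7 in a KO cell, although 45.6% and 41.7% of its cells held none. *Twist2* was at 70.1 CPM there in WT and 95.6 CPM in KO. Mesenchymal markers summed to 113 CPM in WT and 1487 CPM in KO macrophage-like cells, and to 1006 and 1663 CPM in the unnamed cluster. Whether such barcodes held more than 1 cell was not tested beyond the Scrublet calls.

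Adipocyte-like cells of the WT library (43 cells, median depth 9841 UMIs) held a mean of 2 factors per cell, and 0.674 after thinning, with *Zeb2* at 190 CPM (152 to 235). The 8 cells of the KO library (median depth 11494.5 UMIs) held a mean of 3.88, and 1.38 after thinning, with *Zeb2* at 166 CPM (96.9 to 266), and mesenchymal markers summed to 1293 CPM in WT and 3670 CPM in KO. Whether these markers and the factors came from other cells was not tested. Erythroid-like cells held a mean of 0 factors in 5 WT cells and 0.263 in 19 KO cells.

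Each genotype was read from 1 library, so differences between embryos, sexes, sorts and genotypes cannot be told apart, and the intervals cover counting error only. Cells were sorted by a reporter, and the shares of cell classes therefore describe the sort and not the skin. The 3′ counts do not tell isoforms or protein apart, and levels were not compared between genes. *Snai1*, *Snai2* and *Zeb1* were sparse, so small differences in them would not be seen. Free RNA was estimated for mesenchymal-like cells alone, from *Dcn* and *Lum*, and not for glial-like or other cells. Several clusters held few cells of a library, such as 12 KO cells in the melanoblast-like *Mt2* cluster. The class names rest on markers and were not checked by another method.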
